A study of Mus musculus with 12 samples.

Results

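The cytosolic and mitochondrial heat shock chaperones were followed across 12 RNA-seq libraries of mouse lung. The genes were chosen by name, as those called Hsp, DnaJ of classes a, b and c, Cct or Bag with a level of at least 1 CPM (reads scaled to a common library size) in at least 3 libraries. The chaperones of the endoplasmic reticulum Hspa5, Hspa13, Hsp90b1, Dnajb9, Dnajb11 and Dnajc3 were left out by name, as was Hspg2, a matrix proteoglycan. Of 105 entries with such a name 7 were left out and 22 fell below the level, 13 of them pseudogenes. This left 76 entries of 49585, or of the 16126 that were tested, and they carry 75 symbols because Hspa14 is held by 2 entries. By family they are 2 Hsp90 genes, 13 of the Hsp70 and Hsp110 group, 4 DNAJA, 9 DNAJB, 24 DNAJC, 6 BAG, 3 of the Hsp60 and Hsp10 group, 7 CCT subunits, 5 small heat shock protein genes and 3 other genes with an Hsp name. Just inside the limit were Dnajb3, which reached 1.29 CPM in 3 libraries, all of them given Aspergillus and lacking Rgs4, and 1 of the Hspa14 entries, which reached 2.82 CPM. Just outside it were Dnajc5b at 0.848 and the pseudogene Hsp25-ps1 at 0.552 CPM.

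Chaperones bind unfolded protein and help it to fold. Hsp70 works in a cycle in which DnaJ proteins deliver a client and start ATP hydrolysis and Hsp110 and BAG proteins exchange the nucleotide, Hsp90 finishes the folding of signalling proteins, the CCT ring folds actin and tubulin, and Hsp60 with its lid Hsp10 folds protein inside mitochondria. Heat shock factor 1 (HSF1), freed when unfolded protein occupies Hsp70 and Hsp90, drives the inducible genes of these families by binding heat shock elements, repeats of the letters GAA in alternating orientation.

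The libraries came from lungs of mice of the Balb/cJ strain that lack Rgs4 (KO) or are wild type (WT), and that received Aspergillus fumigatus (Af), a mould used to model asthma, or phosphate-buffered saline (PBS). Rgs4 is a regulator of G protein signalling. The 4 groups of 3 libraries are named here by group and library number, KO_Af 12, 13 and 14, WT_Af 18, 19 and 20, KO_PBS 9, 10 and 11, and WT_PBS 15, 16 and 17, and values are printed in that order within a group. The sources used here do not give the allele, age and sex of the animals, or how and when Af was given. They also do not say whether each library came from a separate animal, so the p-values cover only how far these 12 libraries spread, which may be technical. All KO numbers lie below all WT numbers, so that genotype and library number cannot be told apart, and within each genotype PBS numbers lie below Af numbers. In bulk RNA fewer cells of a type and less RNA per cell cannot be told apart either.

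Library totals ran from 20708884 to 30229446 reads, so that 3 reads, the limit for a count of 0, equal 0.0983 to 0.144 CPM by counting error only. Rgs4 had 0.571 to 1.47 CPM in the 6 KO libraries, against 20.7 to 48.8 CPM in the 6 WT libraries. Lung markers were high throughout, with 8 alveolar type 2 cell genes summing to 13861 CPM or more in each library. KO_Af 12 and WT_PBS 17 stood apart, with sums over 8 squamous epithelium genes of 311 CPM in KO_Af 12 and 617 CPM in WT_PBS 17, against 2.10 to 34.7 CPM in the other 10 libraries. Over 7 skeletal muscle genes KO_Af 12 had 447 CPM and WT_PBS 17 had 411 CPM, against 6.22 to 87.4 CPM.

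Set per kilobase of exon, the most abundant of these transcripts over all libraries was Hsp90ab1, the constitutive cytosolic Hsp90, at 537 CPM per kilobase, ahead of Hspa8, the constitutive cytosolic Hsp70, at 411 CPM per kilobase. Hsp90aa1, the inducible Hsp90, followed at 170.2, and the next in order were Bag1 at 95.97, Hspb1 at 95.3 and Hspa1b at 88.8 CPM per kilobase. The order depended on the group, since Hspa1b stood at 20.99 CPM per kilobase in KO_PBS and 213 in WT_PBS. Together the 76 entries took 0.850% to 0.942% of the reads in KO_Af, against 1.082% to 1.201% in WT_Af, and 0.618% to 0.660% in KO_PBS, against 1.08% to 1.38% in WT_PBS. KO libraries were thus below WT libraries without overlap under both exposures, and KO_PBS was the lowest group. In such a sum the most abundant genes weigh most.

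The first comparison was that of KO with WT in lungs given PBS. Of the 76 chaperone entries 20 were lower in KO_PBS than in WT_PBS and 0 were higher (limma adjusted p under 0.05 over all genes), or 26.3%, where 3.55% of all genes tested were called, 1.66% as lower and 1.90% as higher. Both Hsp90 genes, 6 of 13 Hsp70 and Hsp110 genes, 2 of 4 DNAJA, 3 of 9 DNAJB, 2 of 5 small heat shock protein genes, 2 of 7 CCT subunits, 1 of 3 in the Hsp60 and Hsp10 group, 1 of 6 BAG and 1 of 3 other genes passed, and 0 of 24 DNAJC genes did (median log2 0.01). The median difference was log2 -0.17 over the 76 entries, against 0.01 over all genes tested. All 3 KO_PBS libraries lay below all 3 WT_PBS libraries for 36 entries (47.4%, against 15.7% of all genes) and above them for 6 (7.89%, against 17.4%), which were Bag6, Dnajc8, Dnajc9, Dnajc17, Dnajc24 and Dnajc27, named here after their values were seen. Differences are of log2(CPM + 0.5), a scale on which low genes appear to change less than they do, and 9 of the 20 were of at least 2-fold.

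**Figure D1:**
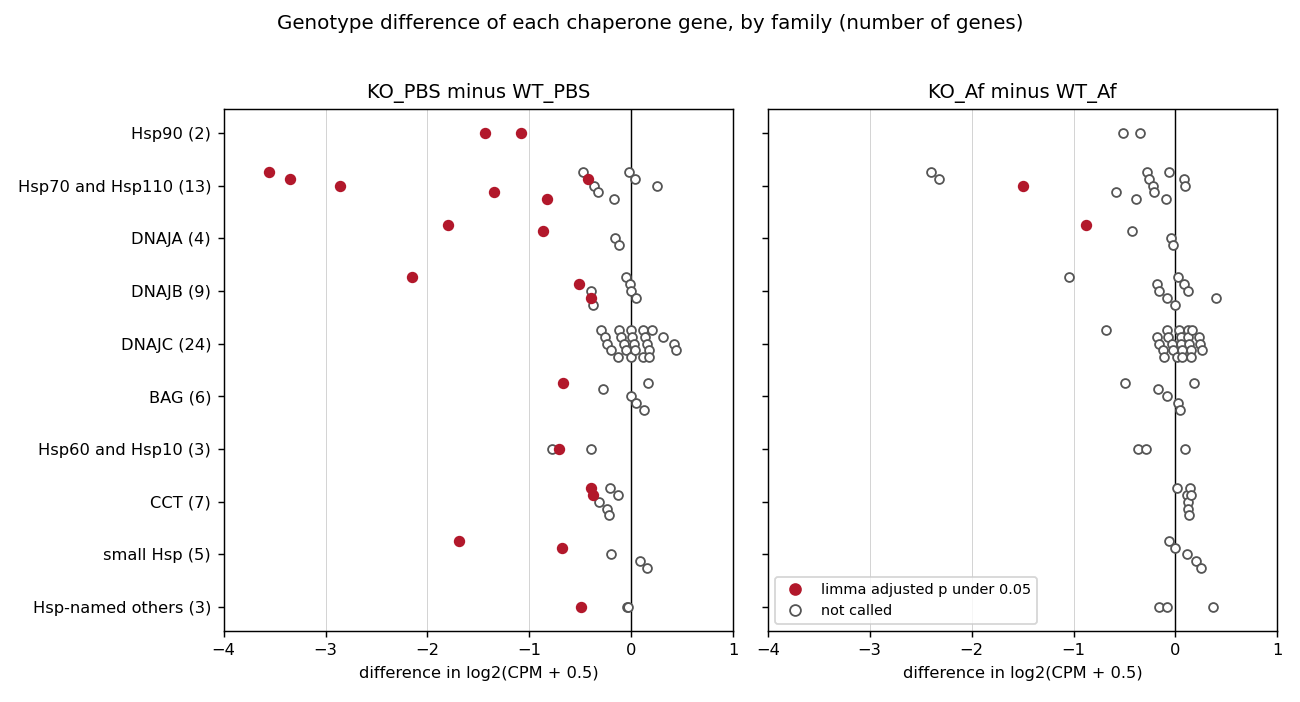
Each point is 1 of the 76 chaperone entries, placed by the KO minus WT difference in log2(CPM + 0.5), by family, under PBS (left) and Af (right). Red points passed limma's adjusted p under 0.05, which were 20 entries under PBS and 2 under Af, and the DNAJC genes cluster around 0 in both panels.

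The Hsp90 pair fell with little spread among KO_PBS libraries. Hsp90aa1 (chromosome 12, 110690605 to 110702728, minus strand, GRCm38) had 319, 330.3 and 308 CPM in KO_PBS, against 794, 806 and 1008 CPM in WT_PBS, a 2.71-fold decrease (log2 -1.44 ± 0.12 SE, limma adjusted p = 1.54e-04). Hsp90ab1 (chromosome 17, 45567775 to 45573271, minus strand) had 985, 1009 and 1007 CPM in KO_PBS, against 2102, 1928 and 2345 CPM in WT_PBS (log2 -1.08 ± 0.13 SE, limma adjusted p = 0.0022). For both genes the groups were far from overlapping, and the KO_PBS libraries agreed within a narrower range than the WT_PBS libraries.

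The inducible Hsp70 genes had the largest decreases of the 76 entries, and also the widest spread. Hspa1b (chromosome 17, 34956436 to 34959238, minus strand) had 24.1, 127 and 25.2 CPM in KO_PBS, against 267, 449.7 and 1077 CPM in WT_PBS (log2 -3.55 ± 0.70 SE, limma adjusted p = 0.0187). Its neighbour Hspa1a (chromosome 17, 34969190 to 34972156, minus strand) had 23.03, 114 and 25.01 CPM in KO_PBS, against 206, 377 and 931 CPM in WT_PBS (log2 -3.35 ± 0.72 SE, limma adjusted p = 0.029). KO_PBS 10 stood above its group for both genes and WT_PBS 17 stood above its own, yet every KO_PBS library was below every WT_PBS library. Without KO_PBS 10 the differences were log2 -4.33 for Hspa1b and -4.09 for Hspa1a, and without WT_PBS 17 they were -3.01 and -2.77. The call was lost in 3 of the 6 fits that left out a PBS library for Hspa1b and in 4 of 6 for Hspa1a, with adjusted p up to 0.085 and 0.115, both without KO_PBS 11. Of the 75-base windows of their transcripts 55.8% of those of Hspa1b and 52.7% of those of Hspa1a are shared between the copies, so the division of reads between them is uncertain.

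Hsph1, the inducible Hsp110 that exchanges the nucleotide of Hsp70, had the smallest adjusted p of the 76 entries. It had 30.3, 33.4 and 32.7 CPM in KO_PBS, against 243, 187 and 288 CPM in WT_PBS, a 7.25-fold decrease (log2 -2.86 ± 0.18 SE, limma adjusted p = 1.98e-05). Its place is chromosome 5, 149614287 to 149636376, minus strand, and its KO_PBS libraries differed among themselves far less than they differed from WT_PBS. Hspa8 had 781, 907 and 945 CPM in KO_PBS, against 2209, 2017 and 2462 CPM in WT_PBS, and every KO_PBS library was below every WT_PBS library (log2 -1.34 ± 0.15 SE, limma adjusted p = 0.00162). The other Hsp110 genes moved less. Hspa4l had 58.3, 55.7 and 52.4 CPM in KO_PBS, against 110.3, 92.4 and 95.1 CPM in WT_PBS (log2 -0.83 ± 0.13 SE, limma adjusted p = 0.00618), and Hspa4 had 146, 149 and 144 CPM in KO_PBS, against 206, 194 and 188 CPM in WT_PBS (log2 -0.42 ± 0.08 SE, limma adjusted p = 0.0187). Neither gene's groups overlapped. Hspa9, the Hsp70 of mitochondria, had 173, 168 and 197 CPM in KO_PBS, against 192, 199 and 214 CPM in WT_PBS and was not called (log2 -0.17, limma adjusted p = 0.577). KO_PBS 11 lay among the WT_PBS values.

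**Figure D2:**
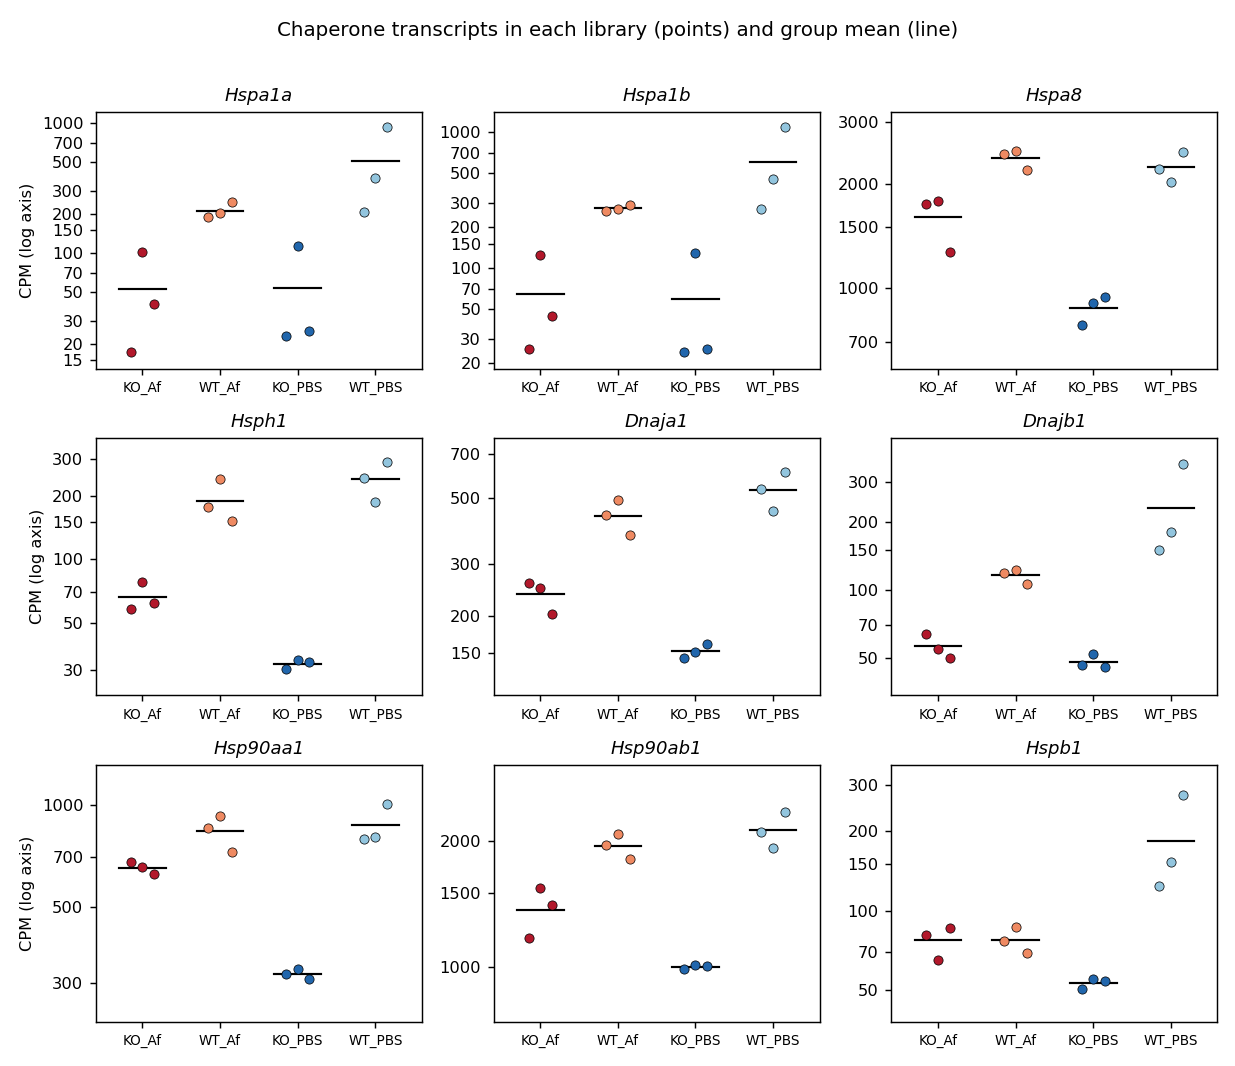
Levels of 9 chaperone transcripts in CPM on a log axis, 1 point per library and a line at the group mean, for KO_Af, WT_Af, KO_PBS and WT_PBS from left to right. KO_PBS lies below WT_PBS without overlap in all 9 panels, and Hspa1a and Hspa1b show single libraries well above the rest of KO_Af, KO_PBS and WT_PBS.

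Among the DnaJ partners of Hsp70, 5 genes of classes a and b fell. Dnaja1 (chromosome 4, 40722150 to 40737149, plus strand) had 145, 151 and 161 CPM in KO_PBS, against 537, 450.1 and 611 CPM in WT_PBS, a 3.47-fold decrease with no overlap (log2 -1.79 ± 0.14 SE, limma adjusted p = 9.71e-05). Dnajb1, the inducible Hsp40, had 46.4, 51.7 and 45.4 CPM in KO_PBS, against 149.8, 181 and 361 CPM in WT_PBS (log2 -2.15 ± 0.25 SE, limma adjusted p = 0.00162). WT_PBS 17 held the highest Dnajb1 value, and without it the difference was log2 -1.77 and the gene was still called. Dnaja4 had 40.9, 37.6 and 43.3 CPM in KO_PBS, against 76.5, 64.4 and 83.5 CPM in WT_PBS (log2 -0.87 ± 0.13 SE, limma adjusted p = 0.00607), and 1581 of its 3589 exon bases overlap Wdr61 on the other strand. The strand setting of the counting is not given, so reads of the 2 genes may be mixed there, as for the 608 exon bases that Dnaja1 shares with Smu1 and the 452 that Cct6a shares with Psph. Dnajb4 had 62.9, 70.4 and 67.3 CPM in KO_PBS, against 98.4, 88.5 and 99.9 CPM in WT_PBS (log2 -0.51 ± 0.10 SE, limma adjusted p = 0.0153). Dnajb2 had 56.9, 59.6 and 56.2 CPM in KO_PBS, against 70.9, 75.3 and 80.9 CPM in WT_PBS (log2 -0.39 ± 0.09 SE, limma adjusted p = 0.0323). Every KO_PBS library was below every WT_PBS library for both of these, although the differences were under 1.5-fold.

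The remaining DnaJ genes of class a and b stood closer together. Dnaja2, an abundant cytosolic partner of Hsp70, had 102, 102 and 105 CPM in KO_PBS, against 114, 109 and 111 CPM in WT_PBS, which did not overlap but was not called (log2 -0.12, limma adjusted p = 0.337). Dnajb6, which holds back protein aggregation, had 93.9, 95.9 and 95.9 CPM in KO_PBS, against 93.96, 96.8 and 96.4 CPM in WT_PBS and differed by log2 -0.01 (limma adjusted p = 0.98), with overlapping groups. The 24 DNAJC genes, which serve many separate compartments and processes and include the endoplasmic reticulum genes Dnajc1 and Dnajc10, ranged from log2 -0.30 to 0.44, with 14 above 0 and 10 below. The most abundant of them were Dnajc5, the cysteine string protein of vesicles, with 139.8, 149 and 138 CPM in KO_PBS, against 144, 150.2 and 153 CPM in WT_PBS, and Dnajc10, an endoplasmic reticulum reductase, with 141, 140.1 and 141 CPM in KO_PBS, against 156, 139 and 129.6 CPM in WT_PBS. Both had overlapping groups. The gene closest to a call was Dnajc9, a histone chaperone, with 25.8, 26.9 and 26.6 CPM in KO_PBS, against 16.6, 20.5 and 21.5 CPM in WT_PBS and no overlap (log2 0.44, limma adjusted p = 0.0802).

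In mitochondria the Hsp60 gene Hspd1 (chromosome 1, 55077835 to 55088243, minus strand) had 113, 112 and 138 CPM in KO_PBS, against 186, 181 and 228 CPM in WT_PBS and fell (log2 -0.71 ± 0.13 SE, limma adjusted p = 0.0123). Its partner Hspe1, the Hsp10 gene transcribed from the other side of the same promoter (chromosome 1, 55088132 to 55091307, plus strand), had 23.2, 26.1 and 32.5 CPM in KO_PBS, against 39.9, 42.2 and 60.6 CPM in WT_PBS. That difference was of the same direction and was not called (log2 -0.78 ± 0.21 SE, limma adjusted p = 0.0729), and the groups did not overlap for either gene. The annotated exons of the pair share 112 bases, and 28.6% of the 75-base windows of Hspd1 are also in the pseudogene Hspd1-ps3, which had 2.84, 1.34 and 3.56 CPM in KO_PBS, against 3.56, 2.65 and 3.92 CPM in WT_PBS. Of 12 other mitochondrial chaperone and protease genes 0 were called in either direction, against 3.55% of all genes (median log2 0.02).

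All 7 CCT subunits of the name rule were below WT_PBS in every KO_PBS library, with differences from log2 -0.39 to -0.13, and 2 passed. Of all genes 15.7% lay below WT_PBS without overlap and 1.66% were called lower. With 1 PBS library left out, Cct3 was called in 1 of 6 fits and Cct6a in 0. Cct6a had 85.97, 95.4 and 92.05 CPM in KO_PBS, against 126, 113 and 120.0 CPM in WT_PBS (log2 -0.39 ± 0.09 SE, limma adjusted p = 0.0396), and Cct3 had 85.5, 91.2 and 95.7 CPM in KO_PBS, against 128, 108 and 118 CPM in WT_PBS (log2 -0.37 ± 0.08 SE, limma adjusted p = 0.0356). The most abundant subunits, Cct5 with 134, 134 and 146 CPM in KO_PBS, against 166, 156 and 159 CPM in WT_PBS and Cct2 with 126, 133 and 136 CPM in KO_PBS, against 150.3, 143 and 140.2 CPM in WT_PBS, were not called (limma adjusted p = 0.225 and 0.361). Tcp1, the subunit outside the name rule and given here for that reason, had 132, 134 and 145 CPM in KO_PBS, against 162, 151 and 157 CPM in WT_PBS and was not called either (log2 -0.19, limma adjusted p = 0.336). It was in a list of 11 prefoldin and CCT partner genes of which 0 were called, against 3.55% of all genes (median log2 0.10).

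Of the small heat shock proteins, which hold unfolded protein without ATP, Hspb1 (chromosome 5, 135887919 to 135889563, plus strand) had 50.8, 55.4 and 54.1 CPM in KO_PBS, against 124, 153 and 275 CPM in WT_PBS (log2 -1.69 ± 0.23 SE, limma adjusted p = 0.00332). The KO_PBS libraries agreed closely, while the 3 WT_PBS libraries ran over more than a 2-fold range, highest in WT_PBS 17. Hspb8 had 46.9, 43.96 and 44.2 CPM in KO_PBS, against 75.6, 64.04 and 77.6 CPM in WT_PBS (log2 -0.68 ± 0.12 SE, limma adjusted p = 0.0138), and Bag3, the BAG protein that pairs with Hspb8 to send clients to autophagy, had 84.5, 83.1 and 82.9 CPM in KO_PBS, against 121, 124 and 158 CPM in WT_PBS (log2 -0.67 ± 0.13 SE, limma adjusted p = 0.0205). The groups did not overlap for Hspb8 or Bag3. The other small heat shock protein genes Hspb2, Hspb6 and Hspb7 had differences of log2 0.15, 0.08 and -0.20 with overlapping groups. Cryab, a small heat shock protein gene without an Hsp name, averaged 193 ± 26.9 CPM in KO_PBS and 196 ± 23.96 CPM in WT_PBS (SD, n = 3 each).

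Of the BAG genes apart from Bag3, none passed. Bag6, which guards tail-anchored membrane proteins, had 222, 229 and 221 CPM in KO_PBS, against 187, 206 and 207 CPM in WT_PBS, above WT_PBS without overlap but not called (log2 0.17, limma adjusted p = 0.462). Bag1, a nucleotide exchange factor of Hsp70, had 124, 121 and 110.3 CPM in KO_PBS, against 110.1, 125 and 121 CPM in WT_PBS with overlapping groups (log2 -0.003). Among the other genes with an Hsp name, Hspbap1 had 4.58, 4.83 and 4.97 CPM in KO_PBS, against 7.86, 6.12 and 7.04 CPM in WT_PBS and fell (log2 -0.50 ± 0.11 SE, limma adjusted p = 0.0298). Hspbp1, a nucleotide exchange factor of Hsp70, had 20.9, 20.3 and 23.96 CPM in KO_PBS, against 21.98, 23.4 and 21.7 CPM in WT_PBS and did not pass (log2 -0.05).

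With limma array weights, which give each library its own weight, 33 entries were called, 2 of them higher (43.4%, against 16.4% of all genes). The count of 20 was 10 without KO_PBS 9, 11 without KO_PBS 10, 10 without KO_PBS 11 and 11 without WT_PBS 17. The genes called in all 6 fits that left out 1 PBS library were Hsph1, Dnajb1, Dnaja1, Hspb1, Hsp90aa1, Hspa8, Hsp90ab1, Dnaja4 and Hspa4l. The other 11 lost the call in at least 1 of the 6. Hspd1 was called in 4 of the 6, Hspa1b and Hspb8 in 3, and Hspa1a, Hspa4 and Bag3 in 2. Cct3, Dnajb2, Dnajb4 and Hspbap1 were called in 1 of the 6 and Cct6a in 0. Without both libraries that stand apart in squamous and skeletal muscle genes, KO_Af 12 and WT_PBS 17, it was 20, with 19 lower and 1 higher, and 18 of these were among the 20 above.

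Promoter sequences are shown for some of the genes that matched a heat shock element motif, to set the letters beside the expression values. RefSeq promoter windows (GRCm38.p6, 250 bases before to 50 after a gene's start) were found for 61 of the 75 symbols and searched on both strands for a 13-base motif of 3 repeats, GAA, any 2 bases, TTC, any 2 bases and GAA, which has 9 defined letters. All 9 letters were found in 4 of the 61 (6.56%), which were Hsph1, Hspd1, Hspe1 and Dnajb6, against 179 of 27025 genes with a window (0.662%). With at most 1 of the 9 letters different it was in 16 of 61 (26.2%), against 2202 of 27025 (8.15%). By call under PBS it was in 9 of the 17 genes called lower that have a window (52.9%) and in 7 of the 44 not called (15.9%), which is a description and was not tested. A match of letters is not a measured binding site. Windows were not used here for Hsp90aa1, Hsp90ab1 and Hspa8. Dnajb1 (log2 -2.15) was also called lower, but its windows differed from the motif in at least 3 letters. That of Hspa4l (log2 -0.83) differed in at least 4, and neither gene's sequence is printed.
In the sites below, each with 8 flanking bases on either side and read on the gene's strand, the capitals mark the matching letters of the motif, and its distance from the start is counted to its first base. The Hsph1 site lies at 16 bases after the start (chr5:149636280-149636308, minus strand), that of Hspd1 139 bases before it (chr1:55088051-55088079, minus strand) and that of Dnajb6 46 bases before it (chr5:29735844-29735872, plus strand). Distances are from 1 RefSeq start of the gene. All 29 bases of the Hsph1, Hspd1 and Dnajb6 sites lie in annotated exons.
Hsph1: gctgcagaTTCtgGAAagTTCtcctcagt
Hspd1: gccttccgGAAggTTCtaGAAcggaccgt
Dnajb6: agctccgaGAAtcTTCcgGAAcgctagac
The Hspe1 match is on the other strand, with its first base 84 bases before the Hspe1 start. It overlaps the Hspd1 match but does not cover the same 13 bases. Dnajb6 holds all 9 letters and was not called between genotypes. The next 6 sites differ in 1 letter and belong to genes called lower in KO_PBS. They are at chr17:34972250-34972278, minus strand for Hspa1a, chr17:34959332-34959360, minus strand for Hspa1b, chr5:135887794-135887822, plus strand for Hspb1, chr4:40722331-40722359, plus strand for Dnaja1, chr9:54699451-54699479, plus strand for Dnaja4 and chr3:152193839-152193867, minus strand for Dnajb4. All 29 bases of the Dnaja1 site and 7 of the Dnajb4 site lie in annotated exons.
Hspa1a: ccagacgcGAAacTgCtgGAAgattcctg
Hspa1b: ccagacgcGAAacTgCtgGAAgattcctg
Hspb1: caacaagaGAAgtTTCcaGAtgggggcag
Dnaja1: aaaaaagccTCtaGAAaaTTCtacgaggc
Dnaja4: agccgccgGAAccTcCgcGAAcgttctgg
Dnajb4: gttcgctgTTCtaGAAagTaCagagacac
The 29 bases around the Hspa1a and Hspa1b sites are the same, 114 bases before each start. Cct6a, with a site 20 bases after its start, was the CCT subunit with the largest difference under PBS, and the Cct2 and Cct5 windows also held the motif with 1 letter different although neither gene was called.

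The promoters of a pair of these genes are printed over the 250 bases before the start, as they belong to an inducible Hsp70 and to the small heat shock protein gene with the largest decrease and overlap no annotated exon. They are Hspa1a (chr17:34972157-34972406, minus strand) and Hspb1 (chr5:135887669-135887918, plus strand), with the matching letters again in capitals.
Hspa1a: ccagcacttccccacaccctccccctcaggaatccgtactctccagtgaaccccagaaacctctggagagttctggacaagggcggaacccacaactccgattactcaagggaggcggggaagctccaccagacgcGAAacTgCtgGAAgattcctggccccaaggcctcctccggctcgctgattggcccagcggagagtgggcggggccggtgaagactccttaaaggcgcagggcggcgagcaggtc
Hspb1: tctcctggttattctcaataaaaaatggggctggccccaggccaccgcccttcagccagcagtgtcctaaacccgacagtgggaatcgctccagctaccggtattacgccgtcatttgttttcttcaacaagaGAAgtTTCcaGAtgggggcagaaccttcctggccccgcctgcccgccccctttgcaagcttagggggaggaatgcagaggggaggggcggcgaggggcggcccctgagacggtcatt
Hspa1a averaged 53.9 ± 51.8 CPM in KO_PBS and 505 ± 379 CPM in WT_PBS, and Hspb1 averaged 53.5 ± 2.38 CPM in KO_PBS and 184 ± 80.1 CPM in WT_PBS (SD, n = 3 each).

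**Figure D3:**
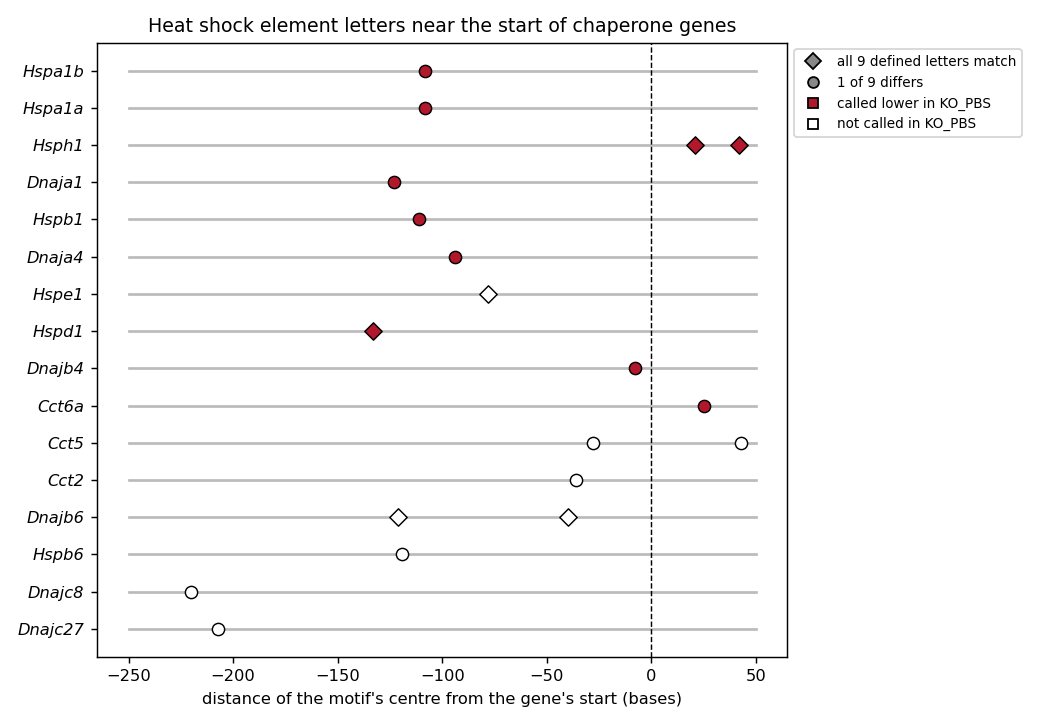
Distance in bases from the gene's start (dashed line at 0) of each motif match in the promoter windows of the 16 chaperone genes that hold one, ordered by the KO_PBS minus WT_PBS difference from the lowest (top). Diamonds match all 9 defined letters, circles all but 1, and red marks genes called lower in KO_PBS. A gene with more than 1 annotated start has a mark only for starts whose window holds a match.

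Genes that work with these chaperones were read from lists made with earlier results of these data known. Of 23 Hsp90 and Hsp70 co-chaperones outside the name rule 9 fell and 1 rose in KO_PBS (median log2 -0.15), where 1.66% of all genes were called lower and 1.90% higher. Stip1, which hands clients from Hsp70 to Hsp90, had 71.3, 72.6 and 80.7 CPM in KO_PBS, against 168, 147 and 176 CPM in WT_PBS (log2 -1.12 ± 0.10 SE, limma adjusted p = 2.24e-04). Chordc1, which binds Hsp90, Fkbp4, an immunophilin, and St13, which binds Hsp70, had differences of log2 -1.09, -0.89 and -0.61 (limma adjusted p = 0.00182, 0.00246 and 0.00246). Hsf1 had 35.1, 34.7 and 35.8 CPM in KO_PBS, against 40.3, 38.5 and 42.7 CPM in WT_PBS (log2 -0.20, limma adjusted p = 0.175), Hsf2 differed by log2 -0.26 without a call, and of the 4 tested genes of that list Hsf4 rose (log2 0.47).

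Other gene lists were read in the same comparison, in which 1.66% of all genes were called lower and 1.90% higher. Of 17 heat-inducible genes that are not chaperones 5 fell and 0 rose, with Ccdc117, Chac1, Zfand2a and Atf3 at log2 -0.72, -1.49, -0.43 and -1.34. Of 19 endoplasmic reticulum chaperone genes 7 fell and 0 rose, with Hspa5 at log2 -0.82. Of 13 glucocorticoid-induced genes 3 fell, with Fkbp5 at 18.5, 14.4 and 13.5 CPM in KO_PBS, against 157, 127 and 132 CPM in WT_PBS (log2 -3.13 ± 0.42 SE, limma adjusted p = 0.00332). The cold-inducible RNA-binding gene Cirbp ran the other way, with 80.2, 91.7 and 82.9 CPM in KO_PBS, against 40.03, 38.9 and 43.8 CPM in WT_PBS (log2 1.04 ± 0.17 SE, limma adjusted p = 0.00771), and of 3 such genes it was the one called. Of 20 immediate early genes 1 rose and 1 fell. Among cell type markers, sums over 6 neutrophil genes were 245 to 468 CPM in KO_PBS, against 119 to 193 CPM in WT_PBS, with 1 gene called higher. Sums over 6 NK cell genes were 51.2 to 60.6 CPM in KO_PBS, against 18.3 to 33.8 CPM in WT_PBS, with 2 called higher, and those over 7 T cell genes were 95.2 to 118 CPM in KO_PBS, against 40.7 to 87.8 CPM in WT_PBS, with 0 called. Sums over 8 endothelial genes were 4915 to 5102 CPM in KO_PBS, against 3640 to 4357 CPM in WT_PBS, with 1 called higher. Both of the next lists stood lower in KO_PBS without overlap. Sums over 6 fibroblast genes were 1635 to 1759 CPM in KO_PBS, against 1845 to 3184 CPM in WT_PBS, with 0 called, and those over 12 ciliated cell genes were 522 to 586 CPM in KO_PBS, against 587 to 677 CPM in WT_PBS, with 1 called lower. The sums of the other cell type lists overlapped between the groups, and 2 of 6 monocyte genes were called higher. The part of these cells in the chaperone differences was not tested.

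The same comparison was made in lungs given Af. Of the 76 entries 2 were lower in KO_Af than in WT_Af and 0 were higher. That is 2.63%, against 0.0868% of all genes tested, 0.0496% as lower and 0.0372% as higher. The median difference was log2 -0.015 over the 76 entries, with 36 above 0 and 40 below, against 0.004 over all genes tested. Hsph1 had 58.05, 77.9 and 62.5 CPM in KO_Af, against 177, 239.8 and 151 CPM in WT_Af (log2 -1.49 ± 0.18 SE, limma adjusted p = 0.0122), and Dnaja1 had 259, 249 and 204 CPM in KO_Af, against 437, 493 and 376 CPM in WT_Af (log2 -0.87 ± 0.14 SE, limma adjusted p = 0.0462). Groups did not overlap for either gene. With 1 Af library left out Hsph1 was called in 4 of 6 fits (limma adjusted p up to 0.0705, without WT_Af 18) and Dnaja1 in 1 of 6 (up to 0.255, without WT_Af 19). Of the other 6 genes that differed between genotypes under both exposures, those lower in KO under both were Rgs4 and the ubiquitin ligase gene Trim65. Under an unadjusted p under 0.05, 13 entries differed (17.1%, against 11.2% of all genes). The edgeR test called 1 entry, Hsph1 (0.0806% of all genes), and DESeq2 called 5 (1.16% of all genes), Hsph1, Dnaja1, Dnajb1, Hspa8 and Hsp90ab1. Without KO_Af 14 or without WT_Af 18 limma called 0 of the 76, and without KO_Af 12, WT_Af 19 or WT_Af 20 it called 1. With array weights it called 17 entries, 4 higher and 13 lower (22.4%, against 13.7% of all genes). Without weights, 0 co-chaperone, heat-inducible, endoplasmic reticulum chaperone, glucocorticoid-induced or cold-inducible genes of the lists above were called, against 0.0868% of all genes. The medians of these lists were log2 0.001, 0.01, -0.09, 0.53 and 0.51.

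Of the 20 entries called under PBS, 17 were below 0 under Af, 12 of them with groups that did not overlap. Of all 16126 genes tested, 7938 were below 0 under Af, and for 6.10% every KO_Af library lay below every WT_Af library. These 20 were chosen for their call under PBS, so nothing is read from the size of their differences under Af against that under PBS. The comparisons under PBS and under Af share no libraries. Hspa1b had 25.01, 123 and 44.3 CPM in KO_Af, against 260.4, 271 and 291 CPM in WT_Af and Hspa1a had 17.3, 102 and 40.4 CPM in KO_Af, against 188, 201 and 246 CPM in WT_Af, and neither was called (log2 -2.40 and -2.32, limma adjusted p = 0.289 and 0.332). KO_Af 13 was the highest KO_Af library for both, and all KO_Af values were below all WT_Af values. Dnajb1 had 63.3, 54.8 and 49.97 CPM in KO_Af, against 119, 123 and 106 CPM in WT_Af (log2 -1.04, limma adjusted p = 0.202). Hsp90ab1 had 1169, 1540.0 and 1402 CPM in KO_Af, against 1952, 2079 and 1811 CPM in WT_Af and Hsp90aa1 had 678, 655 and 627 CPM in KO_Af, against 856, 925 and 725 CPM in WT_Af, both without overlap and without a call (log2 -0.51 and -0.35). Hspb1 stood apart from these, with 81.3, 65.4 and 86.01 CPM in KO_Af, against 77.1, 86.7 and 69.6 CPM in WT_Af, groups that interleaved and a difference of log2 -0.01. Its sign, and that of Hspa4 at log2 -0.07, turned when 1 library was left out (up to log2 0.11 without KO_Af 13 and 0.01 without KO_Af 12).

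**Figure D4:**
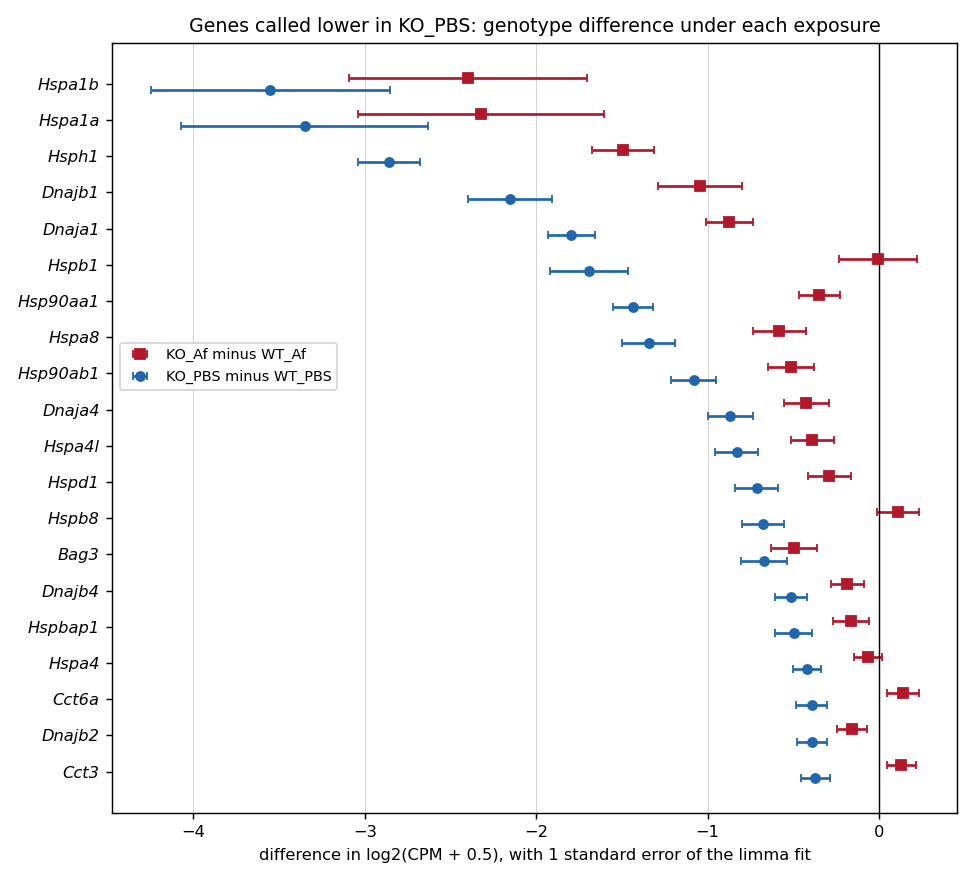
The 20 entries called lower in KO_PBS, with the KO minus WT difference in log2(CPM + 0.5) and 1 standard error of the limma fit, under Af (red squares) and PBS (blue circles). The entries were chosen for their PBS values. Hspb8, Cct6a and Cct3 lie above 0 under Af.

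The differences of the 7 CCT subunits under Af ran from log2 0.01 to 0.15, and none was called. Without KO_Af 12 that of Cct7 was log2 -0.03 and that of Cct4 was 0.006. Cct8 had 208, 195 and 199 CPM in KO_Af, against 184, 188 and 183 CPM in WT_Af and Cct2 had 242, 228 and 248 CPM in KO_Af, against 210.0, 227 and 220.0 CPM in WT_Af, which put every KO_Af library above every WT_Af library, whereas under PBS every KO_PBS library was below every WT_PBS library for both. These 2 genes are named after their values were seen. Over the 76 entries 16 lay below WT_Af without overlap (21.1%, against 6.10% of all genes) and 5 above (6.58%, against 7.66%). Dnajb3, among these 5, passed the level of 1 CPM only through KO_Af.

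Averaged over both exposures, 16 entries were lower in KO and 0 higher (21.1%, against 2.16% of all genes, 1.12% as lower and 1.04% as higher). The count was 10 without KO_PBS 9 or without WT_Af 19. With array weights it was 29, 3 of them higher (38.2%, against 20.0% of all genes). All 16 were among the 20 called under PBS, and the 4 that dropped out were Hspa4, Hspb8, Cct3 and Cct6a. The averaged differences were log2 -2.97 for Hspa1b, -2.84 for Hspa1a, -2.18 for Hsph1, -1.60 for Dnajb1 and -1.33 for Dnaja1, with limma adjusted p = 0.0122, 0.0185, 8.71e-06, 0.00111 and 5.61e-05. In a principal component analysis of the 76 entries alone the first component held 58.8% of the variance, with all 6 KO libraries on 1 side of 0 and all 6 WT libraries on the other. The second held 27.0% and put Af libraries above 0 and PBS libraries below it. Genes were not scaled to equal spread, so those with the widest log2 range, such as Hspa1a and Hspa1b, weigh most. On the first component the KO libraries nearest 0 were KO_Af 13 (-0.744) and KO_PBS 10 (-1.68), which had the most Hspa1a in KO. Over all genes tested, the first component held 68.4% and separated Af from PBS.

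The response to Af was then read in each genotype. In WT 36 entries differed between WT_Af and WT_PBS, 20 higher and 16 lower (47.4%, against 51.8% of all genes, 26.2% as higher and 25.6% as lower), a share near that of all genes. In KO 42 differed between KO_Af and KO_PBS, 30 higher and 12 lower (55.3%, against 57.9%, 28.7% as higher and 29.2% as lower). Every KO_Af library was above every KO_PBS library for 35 entries (46.1%, against 31.1% of all genes) and below for 14 (18.4%, against 31.7%). For WT_Af and WT_PBS the numbers were 29 (38.2%, against 32.7%) and 20 (26.3%, against 32.7%). Dnajb3, among the 35 in KO, passed the level of 1 CPM only through KO_Af. The comparison in KO and the genotype comparison under PBS share the KO_PBS libraries, as that in WT shares the WT_PBS libraries. The median over the 76 entries was log2 0.21 in KO and -0.05 in WT, against -0.02 over all genes in both. Of the entries called higher, 19 were shared by both genotypes, out of 30 in KO and 20 in WT. Of those called lower 9 were shared, out of 12 in KO and 16 in WT. Cell type markers moved too, with 7 of 8 alveolar type 1 genes lower in both genotypes, and 9 of 12 ciliated cell genes lower in KO and 11 of 12 in WT. Their part in the chaperone responses was not tested.

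The chaperonins rose with Af in both genotypes. All 7 CCT subunits were called higher, by a median of log2 0.98 in KO and 0.58 in WT. Cct6a had 234, 189 and 211 CPM in KO_Af, against 85.97, 95.4 and 92.05 CPM in KO_PBS (log2 1.204 ± 0.09 SE, limma adjusted p = 1.30e-06), and 178, 206 and 189.6 CPM in WT_Af, against 126, 113 and 120.0 CPM in WT_PBS (log2 0.67 ± 0.09 SE, limma adjusted p = 1.22e-04). Cct3 had 208, 179 and 190.5 CPM in KO_Af, against 85.5, 91.2 and 95.7 CPM in KO_PBS (log2 1.08 ± 0.08 SE, limma adjusted p = 1.58e-06), and Cct8 had 184, 188 and 183 CPM in WT_Af, against 118, 113 and 113 CPM in WT_PBS (log2 0.69 ± 0.06 SE, limma adjusted p = 8.94e-06). Every Af library was above every PBS library of its genotype for all 7 subunits. Cct5 had 285, 229 and 243 CPM in KO_Af and 226, 233 and 219 CPM in WT_Af. Tcp1 rose too, by log2 0.88 in KO and 0.53 in WT (limma adjusted p = 1.77e-05 and 7.94e-04). It was among 8 of the 11 prefoldin and CCT partner genes called higher in KO and 6 of 11 in WT, against 28.7% and 26.2% of all genes.

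In mitochondria, Hspe1 had 107, 61.4 and 69.5 CPM in KO_Af, against 23.2, 26.1 and 32.5 CPM in KO_PBS, the largest rise of the 76 entries in KO (log2 1.49 ± 0.21 SE, limma adjusted p = 1.24e-04), and 70.6, 82.9 and 64.5 CPM in WT_Af, against 39.9, 42.2 and 60.6 CPM in WT_PBS (log2 0.62 ± 0.21 SE, limma adjusted p = 0.0294). KO_Af 12 held the highest value. Hspd1 rose by log2 0.76 in KO and 0.34 in WT (limma adjusted p = 3.29e-04 and 0.0388). With 1 library left out, the WT response was called in 2 of 6 fits for Hspe1 and in 3 of 6 for Hspd1 (limma adjusted p up to 0.102 and 0.152, both without WT_Af 19), while the KO response of both was called in all 6. Hspa9 had 237, 318 and 325 CPM in KO_Af and 269, 355 and 314 CPM in WT_Af, and rose by log2 0.70 and 0.62 over PBS.

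**Figure D5:**
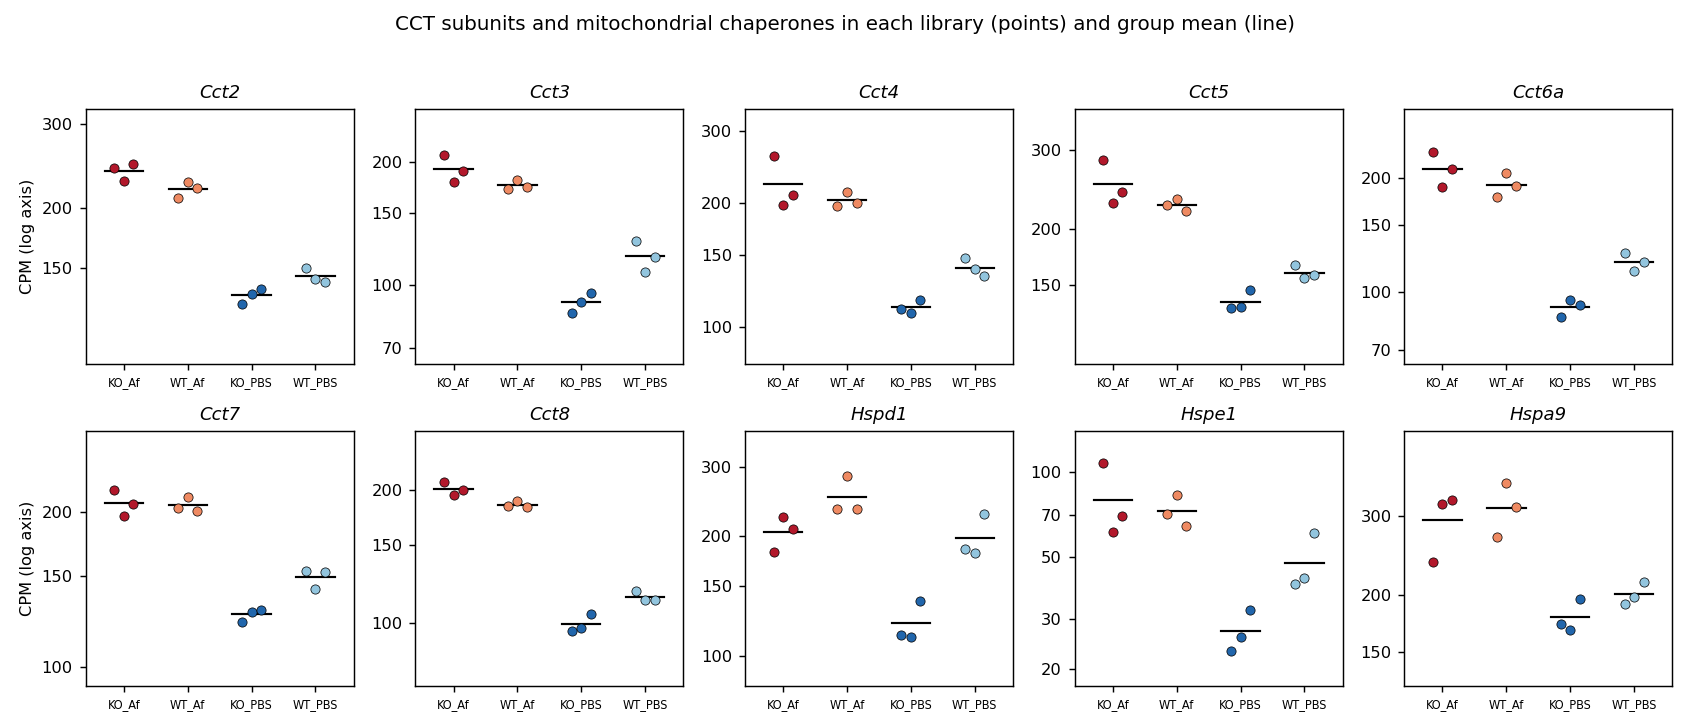
Levels of the 7 CCT subunits and of Hspd1, Hspe1 and Hspa9 in CPM on a log axis, 1 point per library and a line at the group mean, for KO_Af, WT_Af, KO_PBS and WT_PBS from left to right. For the CCT subunits both Af groups lie above both PBS groups, and KO_PBS is the lowest group of each.

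In KO the inducible Hsp90 and Hsp110 rose with Af. Hsp90aa1 had 678, 655 and 627 CPM in KO_Af, against 319, 330.3 and 308 CPM in KO_PBS (log2 1.03 ± 0.12 SE, limma adjusted p = 2.40e-05), and Hsph1 had 58.05, 77.9 and 62.5 CPM in KO_Af, against 30.3, 33.4 and 32.7 CPM in KO_PBS (log2 1.02 ± 0.18 SE, limma adjusted p = 6.01e-04), both without overlap. In WT the same genes differed by log2 -0.06 and -0.35 and were not called (limma adjusted p = 0.71 and 0.133). Hspa8, Hsp90ab1 and Dnaja1 likewise rose in KO, by log2 0.85, 0.44 and 0.63, and had values of log2 0.09, -0.12 and -0.29 in WT, where none was called. A call in 1 genotype and not in the other does not test whether the responses differ. In the test of that difference, given below, limma without array weights called 0 of the 76 entries (0.00620% of all genes). DESeq2 called 12 there (15.8%, against 2.24% of all genes). Hspa1a and Hspa1b were called in neither genotype.

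Other genes that rose in WT belong to separate tasks. Dnajc9 had 42.4, 34.2 and 33.7 CPM in WT_Af, against 16.6, 20.5 and 21.5 CPM in WT_PBS (log2 0.90 ± 0.12 SE, limma adjusted p = 1.23e-04), and Dnajc2, a DnaJ protein bound to ribosomes, had 43.6, 43.9 and 44.4 CPM in WT_Af, against 24.2, 23.7 and 25.4 CPM in WT_PBS (log2 0.83 ± 0.07 SE, limma adjusted p = 4.67e-06). Both also rose in KO, by log2 0.50 and 0.98. Hspbp1 rose by log2 0.45 in KO and 0.48 in WT. The abundant DNAJC genes Dnajc5 and Dnajc10 had overlapping levels, with 140.2, 146 and 151 CPM in WT_Af, against 144, 150.2 and 153 CPM in WT_PBS for Dnajc5 and 133, 133 and 143 CPM in WT_Af, against 156, 139 and 129.6 CPM in WT_PBS for Dnajc10, and neither was called.

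Genes that fell with Af in WT included small heat shock proteins. Hspb1 had 77.1, 86.7 and 69.6 CPM in WT_Af, against 124, 153 and 275 CPM in WT_PBS (log2 -1.16 ± 0.23 SE, limma adjusted p = 0.00136), and Hspb7, a small heat shock protein of heart and muscle, had 32.7, 40.4 and 19.99 CPM in WT_Af, against 45.5, 71.98 and 78.6 CPM in WT_PBS (log2 -1.08 ± 0.32 SE, limma adjusted p = 0.0134). Sums over 6 cardiac muscle genes ran from 126 to 549 CPM in WT_Af, against 886 to 1685 CPM in WT_PBS, and their part in the Hspb7 value was not tested. The Hspb7 call was lost in 2 of the 6 fits that left out a library (limma adjusted p up to 0.0585, without WT_Af 20). Dnaja4 had 38.5, 39.4 and 33.6 CPM in WT_Af, against 76.5, 64.4 and 83.5 CPM in WT_PBS (log2 -0.99 ± 0.13 SE, limma adjusted p = 9.34e-05). Dnajc28 had 4.99, 5.73 and 3.86 CPM in WT_Af, against 12.3, 8.03 and 10.01 CPM in WT_PBS (log2 -0.98 ± 0.18 SE, limma adjusted p = 0.00101). Hspa12b, an atypical Hsp70 of endothelial cells, had 52.8, 51.8 and 49.4 CPM in WT_Af, against 95.2, 94.2 and 107 CPM in WT_PBS (log2 -0.94 ± 0.11 SE, limma adjusted p = 3.77e-05). Each of the 5 had WT_Af libraries below all WT_PBS libraries, and sums over 8 endothelial genes were 2965 to 3626 CPM in WT_Af, against 3640 to 4357 CPM in WT_PBS.

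In KO the lowest responses were those of Hspa12a, another atypical Hsp70, with 6.69, 8.96 and 11.3 CPM in KO_Af, against 20.5, 18.6 and 18.7 CPM in KO_PBS (log2 -1.09 ± 0.16 SE, limma adjusted p = 1.21e-04), and Dnajc28, with 5.03, 3.68 and 3.89 CPM in KO_Af, against 9.06, 7.58 and 9.32 CPM in KO_PBS (log2 -0.97 ± 0.18 SE, limma adjusted p = 8.78e-04). Dnajc27 had 11.4, 12.8 and 14.4 CPM in KO_Af, against 19.4, 19.3 and 19.2 CPM in KO_PBS (log2 -0.58 ± 0.10 SE, limma adjusted p = 3.73e-04). Hspa2 had 14.1, 13.01 and 9.29 CPM in KO_Af, against 17.9, 16.98 and 18.5 CPM in KO_PBS (log2 -0.55 ± 0.14 SE, limma adjusted p = 0.00591), and Dnaja4 had 33.3, 26.1 and 23.98 CPM in KO_Af, against 40.9, 37.6 and 43.3 CPM in KO_PBS (log2 -0.55 ± 0.13 SE, limma adjusted p = 0.00379). No group overlapped its counterpart for these genes. Bag6 fell in KO with 138, 183 and 181 CPM in KO_Af, against 222, 229 and 221 CPM in KO_PBS (log2 -0.43) and differed by log2 -0.18 in WT without a call. Hspb8 was called in opposite directions, higher in KO (log2 0.40 ± 0.12 SE, limma adjusted p = 0.0147) and lower in WT (log2 -0.39 ± 0.12 SE, limma adjusted p = 0.0202), the only such entry of the 76. With 1 library left out it was called in 5 of 6 fits in KO and in 3 of 6 in WT (limma adjusted p up to 0.052, without KO_Af 14, and 0.0888, without WT_Af 20).

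Whether the genotype difference depended on exposure was tested as an interaction, here the Af response in KO minus that in WT. The limma test without array weights called 0 of the 76 entries and 1 gene of all those tested (0.00620%), edgeR called 0 entries and also 1 gene in all, and DESeq2 called 12 entries (15.8%, against 2.24% of all genes). At an unadjusted p under 0.05 there were 27 entries (35.5%, against 10.9% of all genes), 26 of them with a positive value. The entries nearest to a limma call were Hsp90aa1 (log2 1.09 ± 0.17 SE, limma adjusted p = 0.059), Hsph1 (log2 1.37 ± 0.26 SE, limma adjusted p = 0.0893), Hspb1 (log2 1.68 ± 0.32 SE, limma adjusted p = 0.0893) and Dnaja1 (log2 0.92 ± 0.19 SE, limma adjusted p = 0.0957). Without KO_Af 13 limma called 4 entries and without KO_Af 12 it called 1, and with array weights it called 17, all higher (22.4%, against 9.93% of all genes). The median over the 76 entries was log2 0.15, against 0.00 over all genes, and 0.83 for the Hsp90 pair, 0.37 for the CCT subunits and 0.01 for the DNAJC genes.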

How the data were processed

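Poly-A RNA of mouse lung, from 4 groups of 3 libraries, was extracted with Qiagen RNEasy and made into libraries with Illumina TruSeq mRNA reagents, as the labels' protocols state. The submitters' processing notes name cutadapt 1.18, STAR 2.7.6a and RSEM 1.3.0, and the builds GRCm38 and GRCh38 without their roles. No source used here gives the strand setting. The deposited values are a signal, CPM scaled by TMM factors, in a table the authors made. Of the values above 0, 100% gave whole reads within a tolerance of 0.01, and totals were 20708884 to 30229446 reads.
Entries with at least 1 CPM in at least 3 libraries were tested (16126) as log2(CPM + 0.5) with limma 3.58.1 (R 4.3.3) and a mean-variance trend, in 1 fit of 4 group means, with Benjamini-Hochberg adjustment over all of them and a threshold of 0.05. Alternatives were other pseudocounts, filters and scalings, limma without the trend or with array weights, the compared groups alone, libraries left out, and edgeR 4.0.16 and DESeq2 1.42.0 on the recovered reads. The scripts were tested on simulated data. Gene positions are those of GENCODE M21 (GRCm38), and promoter windows those of RefSeq (GRCm38.p6).
The genes and lists were chosen with earlier results of these data known. Values by library are given for each chaperone called between genotypes, for the 5 highest and 5 lowest called changes of each Af response, and for the 2 genes of each family with the highest mean CPM, and lists name up to 4 genes of smallest p. Groups share no replicate numbers. Figures were drawn with matplotlib 3.10.9.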

Additional observations from a re-analysis of the deposited data

Results flagged for a closer look

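The difference between the Af response in KO and in WT passed DESeq2's adjusted p under 0.05 for 12 of the 76 chaperone entries, all of them with a positive value, while edgeR and limma without array weights called 0. With array weights limma called 17, and without KO_Af 13 or without KO_Af 12 it called 4 or 1. A positive value means that the Af response was higher in KO than in WT, or equally that KO minus WT was higher under Af than under PBS. In the Hsp90 pair it was log2 1.10, adjusted p = 1.28e-07 by DESeq2 for Hsp90aa1 and log2 0.58, adjusted p = 0.0155 for Hsp90ab1. In the Hsp70 and Hsp110 group it was log2 1.39, adjusted p = 1.96e-04 for Hsph1, log2 0.78, adjusted p = 0.00899 for Hspa8 and log2 0.37, adjusted p = 0.0446 for Hspa4, again by DESeq2. Of the DnaJ genes, DESeq2 gave log2 1.23, adjusted p = 0.0401 for Dnajb1 and log2 0.94, adjusted p = 0.00106 for Dnaja1. Of the small heat shock proteins, DESeq2 gave log2 1.79, adjusted p = 1.17e-04 for Hspb1 and log2 0.81, adjusted p = 0.0047 for Hspb8. Of the CCT subunits, DESeq2 gave log2 0.54, adjusted p = 0.0141 for Cct6a, log2 0.52, adjusted p = 0.00788 for Cct3 and log2 0.33, adjusted p = 0.0127 for Cct8.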

How the results depend on the processing

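No paired analysis was possible because the groups share no replicate numbers. None of the entries called in a comparison changed sign there under an alternative run. Among those not called, the sign turned under at least 1 alternative for 15 entries between KO_PBS and WT_PBS, 27 between KO_Af and WT_Af, 15 averaged, 4 in the WT response, 10 in the KO response and 28 for the interaction, and the values of these entries give no direction. Of the 76 entries, limma with array weights called 33 between KO_PBS and WT_PBS, 17 between KO_Af and WT_Af, 29 averaged and 17 for the interaction, against 20, 2, 16 and 0 without weights. Between KO_Af and WT_Af the count of 2 was 1 with no filter on low values, with a filter of 5 CPM, without the trend and by edgeR, 0 with the compared groups alone and 5 by DESeq2. DESeq2 called 12 for the interaction. With 1 library left out the counts ran from 10 to 17 between KO_PBS and WT_PBS, from 0 to 2 between KO_Af and WT_Af, from 10 to 19 averaged and from 0 to 4 for the interaction. The other counts, those of both Af responses included, stayed within 1.5 times. With fewer libraries or groups a fit has fewer residual degrees of freedom; for the other changes the cause was not tested.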
